A study of Rattus norvegicus with 12 samples.

Results

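The Hox cluster genes encode homeodomain transcription factors that lie in 4 clusters, Hoxa to Hoxd. All protein coding rows of the deposited table whose name is Hox, a cluster letter and a paralog number were taken, with the row of highest mean kept where a name repeated. This gave 39 genes of 34525 in the table, 11 in Hoxa, 10 in Hoxb and 9 each in Hoxc and Hoxd, and genes at 0 were kept. Their levels were followed through 12 rat RNA libraries from a study of chronic orofacial pain. The libraries came from thalamus and from rostral ventral medulla (RVM), the brainstem region from which neurons descend to control pain signals, with 3 libraries each from saline (0.9% NS) and CFA samples of either region. The labels give no strain, genotype, age, dose, injection site or time, and do not spell out CFA. Whether the 3 samples of a group are different rats is not stated, and the p-values speak for the variation among these libraries alone, which may be technical. Values are FPKM, fragments scaled to gene length and library total by the authors. The reads behind them were recovered from the values (14.94 to 19.24 M in genes per library) and are also given scaled to the library total alone (CPM), where 3 reads came to 0.156 to 0.201.

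Within a Hox cluster the genes are transcribed in the same direction and are numbered by their order, so that genes with the same number in different clusters (paralogs) are descended from a common ancestor. In the embryo low numbers are switched on first and reach farthest forward, into the hindbrain, whereas the highest numbers act in the trunk, tail and limbs. Forebrain, including the thalamus, forms in front of all Hox domains, and the medulla forms within those of the low numbers. Retinoic acid opens the low-number end, Polycomb group proteins keep silent genes closed and Trithorax group proteins keep active genes open. Hox proteins bind DNA with cofactors of the TALE class (Pbx, Meis, Pknox).

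The clusters also hold microRNAs, and these are shown because they lie on either side of the point in the clusters where RVM reads end. The table lists Mir10a between Hoxb4 and Hoxb5 and Mir10b within the row of Hoxd4, next to genes with RVM reads. Mir196a, Mir196b and Mir196c lie among paralogs 9 to 13, where almost no read was found. The mature 5p sequences of RefSeq (GRCr8) are given from 5′ to 3′ with the seed, bases 2 to 8, in capitals.
rno-miR-10a-5p: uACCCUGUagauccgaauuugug
rno-miR-10b-5p: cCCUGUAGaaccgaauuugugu
rno-miR-196a-5p: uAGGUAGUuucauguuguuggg
rno-miR-196b-5p: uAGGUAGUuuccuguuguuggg
rno-miR-196c-5p: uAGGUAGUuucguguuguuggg
The 3 miR-196 sequences shared the seed AGGUAGU. Counted from 1 at the 5′ end, miR-196b differed from miR-196a by A12C and miR-196c by A12G, outside the seed. The listed miR-10b began 2 bases farther along than miR-10a, so that the letters at bases 2 to 8 differed. Over the 21 bases they shared, the sequences differed by U12A, numbered on miR-10a. Over all 12 libraries the precursor rows held 2 reads for Mir10a, in RVM saline library 1, and 3 for Mir10b, all in RVM. The rows of Mir196a, Mir196b and Mir196c held 0. Levels of mature microRNAs were not measured.

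In RVM the Hox reads came from the low-number end of Hoxb, Hoxc and Hoxd, and in thalamus there were almost none. The 39 genes held 15316 reads over the 6 RVM libraries and 43 over the 6 thalamus libraries. Per library this was 126 to 184 CPM in RVM and 0.131 to 0.838 CPM in thalamus, without overlap. In RVM 10 genes averaged 1 FPKM or more in a treatment group, Hoxb2, Hoxb3, Hoxb4, Hoxb5, Hoxb6, Hoxc4, Hoxc5, Hoxd1, Hoxd3 and Hoxd4. None had such a mean in thalamus. A further 13 had at least 1 read in RVM and lower means, and 16 held 0 reads in all 12 libraries.

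**Figure D1:**
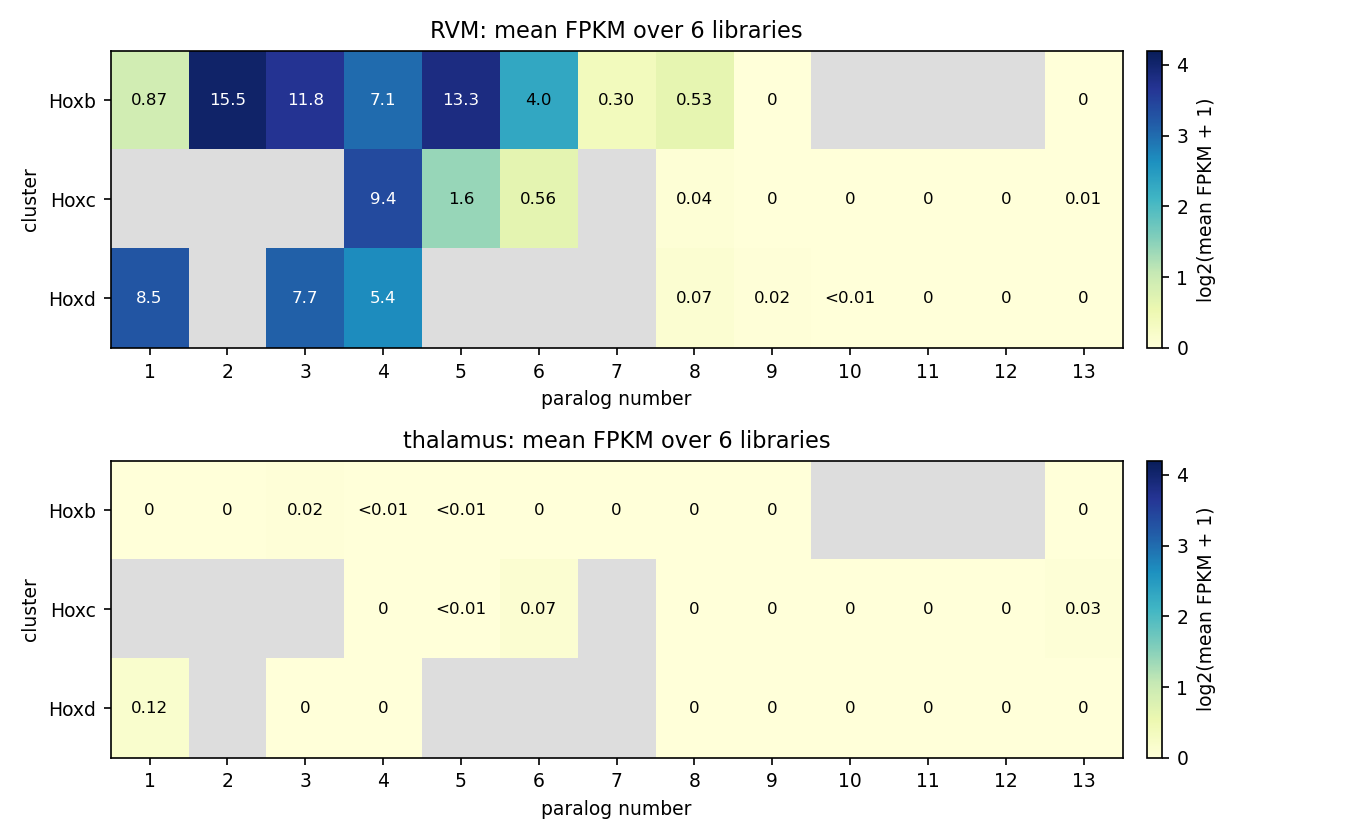
Mean FPKM of the genes of Hoxb, Hoxc and Hoxd over the 6 RVM libraries (top) and the 6 thalamus libraries (bottom), by cluster and paralog number, with colour for log2(mean FPKM + 1) and grey where the table lists no such gene. In RVM the filled cells run from Hoxb2 to Hoxb6, Hoxc4 to Hoxc5 and Hoxd1 to Hoxd4, and the highest mean is that of Hoxb2, 15.5 FPKM.

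By paralog number most RVM reads lay in groups 1 to 5, few in groups 6 to 8 and almost none from 9 on. Hoxb5 held 1074 RVM reads in saline and 956 in CFA, whereas Hoxb6 held 145 and 121. The 12 genes of paralog groups 1 to 4 held 12392 RVM reads and 28 thalamus reads. The 11 genes of groups 5 to 8 held 2919 and 12. The 16 genes of groups 9 to 13 held 5 and 3, and 13 of these 16 were at 0 in every library. Among clusters Hoxb led, with 7857 RVM reads, followed by Hoxd with 4937, Hoxc with 2462 and Hoxa with 60. Hoxb made up 58.3 to 64.0% of the summed Hox FPKM of an RVM library.

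Distance along the cluster gave the same picture without a smooth slope. In the table Hoxb spans 184 kb of chromosome 10, Hoxc 118 kb of chromosome 7 and Hoxd 97.4 kb of chromosome 3. No build is named for these positions in the sources used here. In Hoxb the RVM mean was 0.874 FPKM for Hoxb1 at the low-number end, 15.5 for Hoxb2, 11.8 for Hoxb3, 7.09 for Hoxb4, 13.3 for Hoxb5 and 3.95 for Hoxb6. It was 0.296 for Hoxb7, 0.529 for Hoxb8 and 0 for Hoxb9 and Hoxb13. In Hoxc it was 9.41 for Hoxc4, 1.63 for Hoxc5, 0.565 for Hoxc6 and 0.0405 for Hoxc8. In Hoxd it was 8.54 for Hoxd1, 7.73 for Hoxd3, 5.37 for Hoxd4 and 0.0716 for Hoxd8, the next gene in line. Hoxd4 held 807 RVM reads in saline and 628 in CFA, whereas Hoxd8 held 6 over both.

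**Figure D2:**
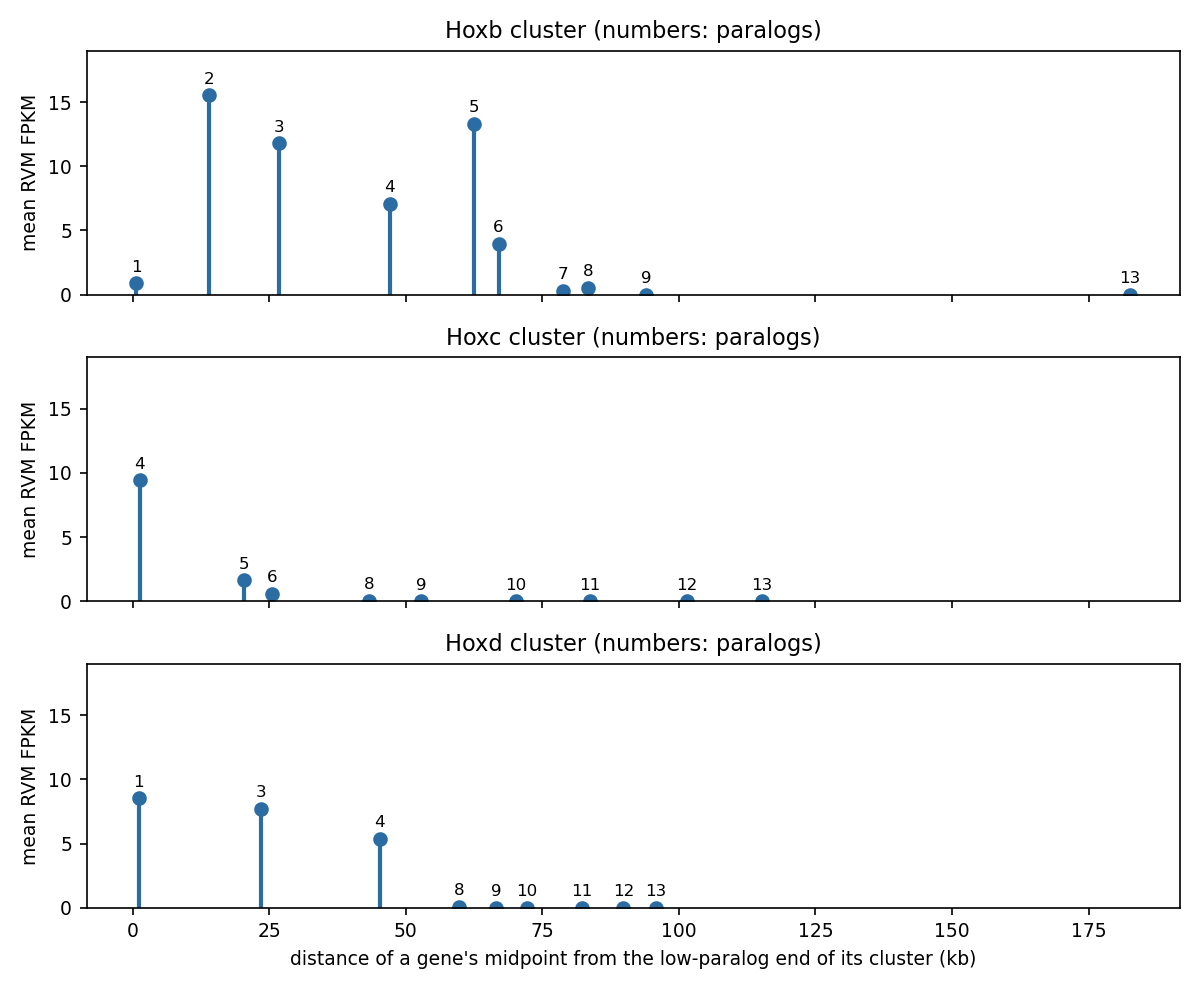
Mean FPKM over the 6 RVM libraries (vertical axis) against the distance in kb of each gene's midpoint from the low-number end of its cluster, for Hoxb, Hoxc and Hoxd, with paralog numbers above the points. Hoxb1, the gene nearest that end in Hoxb, sits at 0.874 FPKM beside Hoxb2 at 15.5, and in Hoxd the level drops between Hoxd4 at 5.37 and Hoxd8 at 0.0716.

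Promoter sequences are shown for both ends of Hoxd and for Hoxb1. RefSeq promoters of 300 bases (250 before and 50 after the start, GRCr8) were matched by symbol for 20 of the 39 genes. Hoxd1 (chr3:80072791-80073090, plus strand) had 8.54 FPKM in RVM and Hoxd13 (chr3:79977827-79978126, plus strand) 0 reads. In these 2 sequences CG is in capitals, the dinucleotide that is methylated in mammals and dense at many Polycomb targets.
Hoxd1: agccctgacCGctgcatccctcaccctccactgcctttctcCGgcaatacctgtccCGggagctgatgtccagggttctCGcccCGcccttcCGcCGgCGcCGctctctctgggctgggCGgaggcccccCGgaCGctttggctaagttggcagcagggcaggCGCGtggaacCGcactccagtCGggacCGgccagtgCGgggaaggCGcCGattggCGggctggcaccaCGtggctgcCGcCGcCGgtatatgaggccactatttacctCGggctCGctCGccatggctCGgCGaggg
Hoxd13: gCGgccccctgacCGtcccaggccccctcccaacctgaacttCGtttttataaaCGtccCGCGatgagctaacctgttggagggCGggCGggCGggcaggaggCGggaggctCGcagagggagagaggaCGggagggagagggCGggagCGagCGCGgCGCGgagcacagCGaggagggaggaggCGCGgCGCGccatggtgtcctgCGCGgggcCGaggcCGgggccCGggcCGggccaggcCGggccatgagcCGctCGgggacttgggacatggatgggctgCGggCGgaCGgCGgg
Hoxd1 held 30 CG and Hoxd13 36, against a median of 7 over the 33469 promoters of that table. As many as 30 were found in 10.3% of all promoters and as many as 36 in 5.43%. Hoxd8, with 6 RVM reads, held 49, Hoxd3 19, Hoxd4 12 and Hoxc4, at 9.41 FPKM in RVM, held 6. Among the promoters matched, the CG count thus did not sort the genes with RVM reads from those without. Of the 10 genes with a group mean of 1 FPKM or more, only Hoxc4, Hoxd1, Hoxd3 and Hoxd4 had a promoter entry. Methylation was not measured.

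For Hoxb1 (chr10:81827665-81827964, plus strand) the capitals mark TGATNNAT, a form of the joint binding site of Hox and Pbx proteins, searched on both strands.
Hoxb1: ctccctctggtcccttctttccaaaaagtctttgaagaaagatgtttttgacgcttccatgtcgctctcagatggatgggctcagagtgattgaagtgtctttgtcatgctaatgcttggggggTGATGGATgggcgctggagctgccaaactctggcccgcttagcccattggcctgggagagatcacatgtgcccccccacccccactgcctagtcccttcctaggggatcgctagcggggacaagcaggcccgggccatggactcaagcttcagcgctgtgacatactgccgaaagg
TGATNNAT occurred in 9.1% of all promoters and in 4 of the 21 Hox promoters, those of Hoxb1, Hoxa2, Hoxa7 and Hoxd11. A match is a description of letters only, and binding was not measured.

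The values of the 10 genes with at least 1 FPKM are given by library, RVM saline first. Hoxb1 and Hoxb2 are low-number genes of hindbrain segments, and Hoxb2 is known for its part in facial motor neurons. Hoxb2 (ENSRNOG00000008365, chromosome 10, 84200880 to 84202688) was at 16.1, 14.9 and 17.9 FPKM in saline libraries 1, 2 and 3 and at 15.9, 12.6 and 15.7 FPKM in CFA libraries 1, 2 and 3. Thalamus was at 0 in all 6, and the saline and CFA values of RVM overlapped. Pooled over the 3 libraries of each group, Hoxb2 was at least 289-fold higher in RVM than in thalamus in saline and at least 237-fold higher in CFA, with 3 reads over the group as the floor of thalamus.

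Hoxb3, Hoxd3 and their paralog Hoxa3 are genes of the caudal hindbrain. Hoxb3 (ENSRNOG00000008313) was at 13.9, 12.4 and 13.7 FPKM in saline and at 10.4, 10.1 and 10.2 FPKM in CFA. Its RVM groups did not overlap, and thalamus held 4 reads, all in saline. The RVM to thalamus ratio of its pooled CPM was 354 in saline (exact binomial 95% interval 138 to 1301) and at least 331 in CFA. Hoxd3 (ENSRNOG00000001577) was at 8.28, 7.46 and 10.6 FPKM in saline and at 6.30, 7.02 and 6.75 FPKM in CFA. Every CFA library lay below every saline library, with 7.02 and 7.46 FPKM at the edge, and thalamus was at 0. It was at least 369-fold higher in RVM in saline and at least 255-fold higher in CFA.

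Paralog group 4 marks the most caudal hindbrain and the spinal cord. Of its 3 genes outside Hoxa, Hoxc4 had the highest mean over the 6 RVM libraries (9.41 FPKM), above Hoxb4 (7.09) and Hoxd4 (5.37), and lay above both in every one of them. Hoxb4 (ENSRNOG00000008191) was at 9.07, 6.71 and 6.26 FPKM in saline and 6.76, 6.82 and 6.88 FPKM in CFA. The CFA libraries lay within the saline range, and saline library 1 stood above the other 5. Hoxc4 (ENSRNOG00000016613) was at 11.8, 9.81 and 8.32 FPKM in saline and 7.56, 10.1 and 8.91 FPKM in CFA, with overlap and with thalamus at 0. Hoxd4 (ENSRNOG00000001578) was at 7.36, 4.81 and 6.83 FPKM in saline and 4.22, 4.24 and 4.75 FPKM in CFA. Its groups did not overlap, with 4.75 and 4.81 FPKM at the edge, and thalamus was at 0. In saline the RVM level was at least 214-fold higher for Hoxb4, at least 341-fold for Hoxc4 and at least 285-fold for Hoxd4. In CFA it was at least 276-fold higher for Hoxc4 and at least 179-fold for Hoxd4, and thalamus CFA held 1 read of Hoxb4 against 638 in RVM.

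Hoxd1 belongs to group 1 and is known in mouse for its part in pain-sensing neurons of dorsal root ganglia. Hoxd1 (ENSRNOG00000001572, chromosome 3, 61685619 to 61687758) was at 12.3, 7.21 and 12.3 FPKM in saline and at 6.61, 6.75 and 6.04 FPKM in CFA libraries of RVM. Saline library 2 was close to the CFA libraries and the groups did not overlap. Hoxd1 was also the member with most thalamus reads, 12, 6 and 3 in saline and 2, 0 and 0 in CFA. The ratio of pooled CPM was 46.5 in saline (95% interval 30.3 to 75.5) and 269 in CFA (74.1 to 2223). The ratios rest on 21 and 2 thalamus reads, and the intervals cover counting error only.

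Groups 5 and 6 include Hoxb5, Hoxb6 and Hoxc5, genes of the cervical level of the nervous system. Hoxb5 (ENSRNOG00000008010) was at 18.0, 13.3 and 13.5 FPKM in saline and 10.2, 15.8 and 9.001 FPKM in CFA. Hoxb6 (ENSRNOG00000007823) was at 5.76, 3.61 and 4.29 FPKM in saline and 2.46, 5.08 and 2.49 FPKM in CFA. Hoxc5 (ENSRNOG00000016598) was at 1.88, 1.70 and 1.57 FPKM in saline and 1.14, 2.61 and 0.900 FPKM in CFA. All 3 were highest or next to highest in saline library 1 and CFA library 2, and their groups overlapped. Hoxb5 was at least 379-fold higher in RVM than in thalamus in saline, Hoxb6 at least 51.2-fold and, in CFA, at least 34.4-fold. Hoxc5 held 219 RVM reads and 1 thalamus read in saline and 228 and 0 in CFA.

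**Figure D3:**
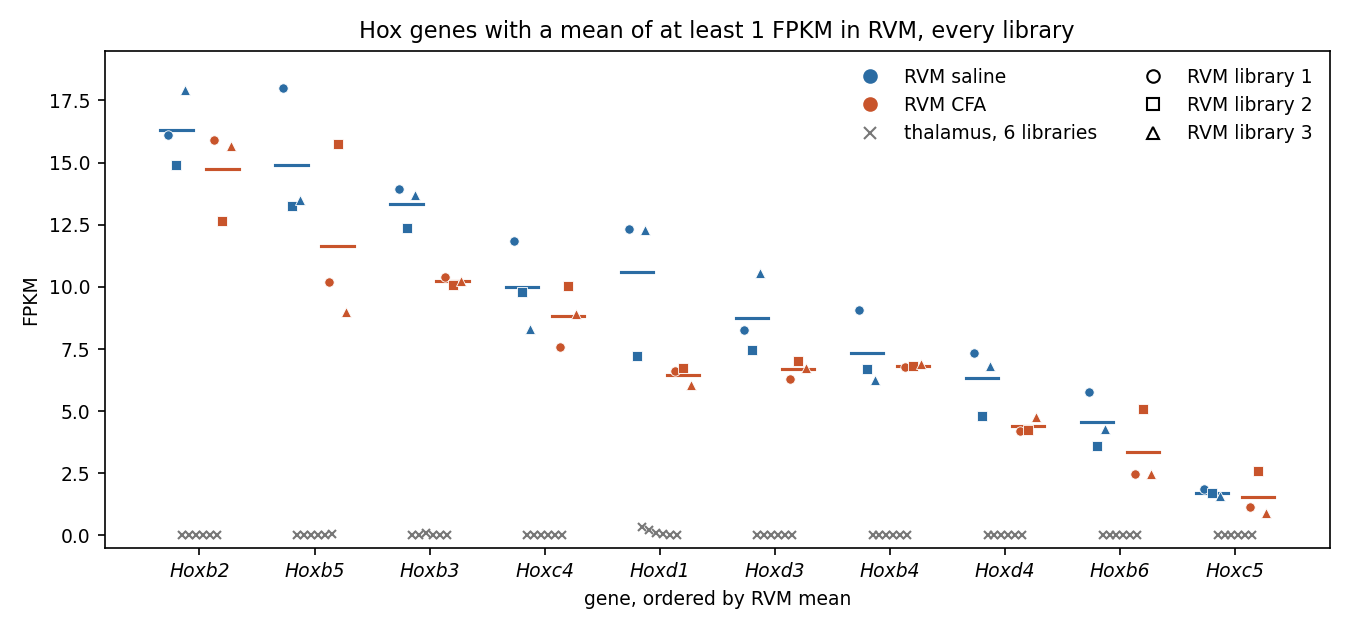
FPKM of the 10 Hox genes that averaged 1 FPKM or more in an RVM group, in every library, ordered by RVM mean, with lines for group means, marker shapes for the library number and crosses for thalamus. Thalamus crosses lie at or near 0 for every gene, and for Hoxb3, Hoxd1, Hoxd3 and Hoxd4 the 3 CFA points lie below the 3 saline points.

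Ordered by their mean over the 6 RVM libraries the genes ran Hoxb2, Hoxb5, Hoxb3, Hoxc4, Hoxd1, Hoxd3, Hoxb4, Hoxd4, Hoxb6 and Hoxc5, on the FPKM scale, which is per length. The ranges of the 6 libraries overlapped for all 9 neighbouring pairs of this order. Within libraries the higher gene of the pair led in all 6 for Hoxb3 over Hoxc4 and for Hoxb6 over Hoxc5, and in 3 of 6 for Hoxb5 over Hoxb3, Hoxd1 over Hoxd3 and Hoxd3 over Hoxb4. The spread between libraries was least for Hoxb2 (coefficient of variation 11.1%) and most for Hoxc5 (36.8%), Hoxd1 (34.5%) and Hoxb6 (34.2%).

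The other 13 genes with RVM reads were low. Hoxb1, the gene of the facial motor segment, was just under the level of 1 FPKM, at 1.31, 0.802 and 0.608 FPKM in saline and 1.24, 0.609 and 0.672 in CFA, where Hoxc5 with group means of 1.72 and 1.55 was just over it. Hoxc6 ranged from 0.194 to 1.30 FPKM in RVM, Hoxb8 from 0 to 2.09, Hoxb7 from 0 to 1.13, Hoxa4 from 0.129 to 0.910 and Hoxa2 from 0.0735 to 0.265. Hoxc8 held 9 RVM reads, Hoxd8 6, Hoxd9 3 and Hoxa7, Hoxc13 and Hoxd10 1 each. Reads in each of the 6 RVM libraries were found for 14 genes, the 10 above with Hoxb1, Hoxc6, Hoxa2 and Hoxa4. Those at 0 throughout were 7 Hoxa genes, Hoxb9, Hoxb13, Hoxc9 to Hoxc12 and Hoxd11 to Hoxd13.

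Groups 6 to 8 varied more between RVM libraries than groups 1 to 4. Summed FPKM of groups 6 to 8 was 10.4, 4.19 and 5.56 in saline and 3.09, 6.86 and 2.71 in CFA. Hoxb8, known for its part in dorsal horn neurons, followed this with 33 reads in saline library 1, 9 in CFA library 2 and 0 to 6 in the other libraries. Hoxc6 held 26 and 18 reads in those libraries and 4 to 10 in the others. Groups 1 to 4 had sums of 81.1, 64.4 and 76.9 in saline and 59.3, 58.5 and 60.9 in CFA. Of the 10 genes described by library, 4 had their highest values in saline 1 and CFA 2 (Hoxb5, Hoxb6, Hoxc4 and Hoxc5) and 5 in saline 1 and saline 3 (Hoxb2, Hoxb3, Hoxd1, Hoxd3 and Hoxd4). RVM saline library 1 was highest for 15 of the 23 genes with RVM reads.

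Markers of neighbouring tissue were set beside these values. The summed FPKM of 11 spinal cord and dorsal root ganglion genes was 81.4 in saline 1 and 93.0 in CFA 2 against 78.9 to 98.2 in the other RVM libraries, but most of it came from Pmp22, a myelin gene (52.2 and 70.1 FPKM), and Pou4f1 (23.9 and 15.0). By single gene, 5 of the 11 were highest in CFA 2, among them Lbx1 and Tlx3, which encode homeobox factors of dorsal horn neurons, and Mnx1, a motor neuron gene, and 0 were highest in saline 1. Lbx1 had 2.15 FPKM in CFA 2 and 0.924 to 1.496 in the other 5 RVM libraries, and Mnx1 had 1.17 and 0.0993 to 0.799. Tlx3 had 0.373 FPKM in CFA 2 and 0 to 0.2755 in the others, and Drgx 0.408 and 0.119 to 0.325. The 23 hindbrain identity genes had sums of 158 in saline 1 and 138 in CFA 2 against 126 to 165 in the others. Drgx, Lbx1, Mnx1 and Tlx3 are on this hindbrain list as well, so their values do not tell spinal cord from medulla. Of the 23 genes, 5 were highest in CFA 2, 7 in saline 3 and 2 in saline 1. The share of all genes highest in each library was not counted, and nothing is read from these counts. Leukocyte and blood genes summed to 905 in saline 1 and 1929 in CFA 2, the highest sum of the 6, the others lying between 739 and 1231. Haemoglobin genes made up 892 and 1910 of these, whereas Ptprc, the common leukocyte antigen, was at 2.52 FPKM in CFA 2 against 8.12 and 5.72 in CFA 1 and CFA 3. Their part in the values of groups 6 to 8 was not tested. In these bulk samples fewer cells of a type and less RNA per cell cannot be told apart.

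**Figure D4:**
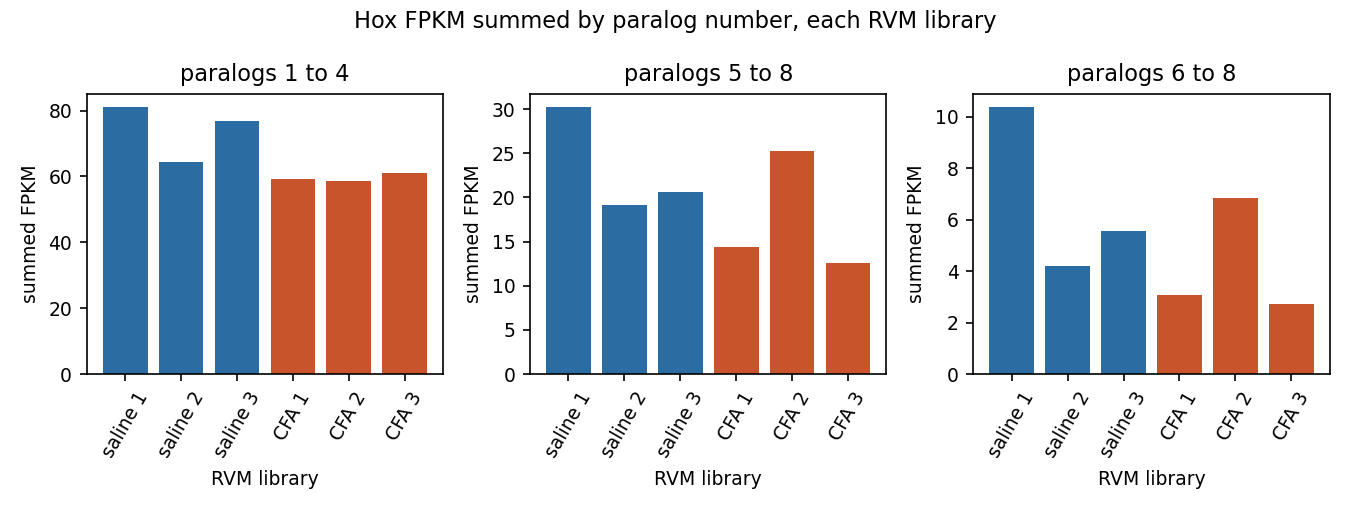
Summed FPKM of Hox genes of paralog groups 1 to 4, 5 to 8 and 6 to 8 (panels, vertical axes from 0) in each of the 6 RVM libraries, saline in blue and CFA in orange. Groups 1 to 4 lie between 58.5 and 81.1 with CFA below saline, whereas groups 6 to 8 are highest in saline 1 (10.4) and CFA 2 (6.86).

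Hoxa stood apart by how the table lists it. Of 27 rows named or described as Hoxa genes, 16 lie on chromosome 4 and 11 on the unplaced scaffold KL567939.1, and each of the 11 Hoxa paralogs has more than 1 row. The 11 scaffold rows held 0 reads. Hoxa3, Hoxa5, Hoxa10 and Hoxa13 are present under these names on the scaffold only. On chromosome 4 a row described as Hox-A3 (LOC108348320) held 17 RVM reads and rows described as Hox-A5 held 30 (LOC103689922) and 3 (AABR07060585.1). All 27 rows together held 110 RVM reads, 60 in the members and 50 in other rows, and 0 thalamus reads. A zero at Hoxa3 or Hoxa5 is therefore a zero of that row. Whether reads that fit more than 1 copy were dropped was not tested, and Hoxa levels are given as uncertain.

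The comparison of RVM with thalamus in the same treatment describes where the genes are read. In saline 9 of the 39 genes reached the filter of a mean of 1 FPKM over the 6 libraries, and limma on log2(FPKM + 1) called all 9 higher in RVM, beside 22.7% of the 14396 genes tested. Each of the 9 reached the filter through its RVM libraries alone and so had to differ, and nothing is read from the count. The log2 differences ran from 2.46 ± 0.18 (SE) for Hoxb6 to 4.11 ± 0.11 for Hoxb2, with adjusted p-values of 0.000234 and 2.61e-05. On this scale the 1 added to FPKM understates differences from 0. The read ratios above do not use it, but where thalamus held 0 reads they are lower bounds set by the floor. In CFA the same test called 9 of 9 higher, beside 18.1% of 14787 genes, with log2 differences from 2.07 ± 0.26 for Hoxb6 to 3.97 ± 0.13 for Hoxb2 and adjusted p-values of 0.00257 and 8.31e-05. Without the filter and with limma-voom on the recovered reads, 16 of 22 Hox genes with reads were called higher in saline and 13 of 22 in CFA, beside 11.6% of 22805 and 6.12% of 23166 genes. These added Hoxb1, Hoxc5, Hoxa2 and Hoxa4 in both, and Hoxb8, Hoxc6 and Hoxd8 in saline. Hoxd8 rested on 3 RVM reads (adjusted p = 0.0495). In either treatment most of the 22 genes held 0 thalamus reads. They entered these fits through RVM alone and could only come out higher, so nothing is read from these counts either.

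Markers of the labelled regions were read in the same fits. The 23 hindbrain genes summed to 126 to 165 FPKM in RVM and 10.2 to 12.7 in thalamus. Most tested members reached the filter through RVM alone, and no count is given for them. Slc6a5, the glycine transporter, had 53.6 ± 3.17 FPKM (SD, n = 3) in RVM saline and 0.474 ± 0.157 in thalamus saline, and Tph2, the enzyme of serotonin synthesis in the raphe, 56.3 ± 10.5 and 0.214 ± 0.128. Nkx2-2, a homeobox gene read in both regions, had 12.1 ± 2.64 and 6.40 ± 0.664 (log2 0.81, adjusted p = 0.0085). Among forebrain and midbrain patterning genes, several of which reached the filter through thalamus alone, Lhx9 had 0.1497 ± 0.0506 FPKM in RVM saline and 15.8 ± 3.58 in thalamus saline. Choroid plexus genes summed to 16.7 to 10420 FPKM in CFA libraries of thalamus, 5.59 to 28.7 in its saline libraries and 3.99 to 10.2 in RVM. Thalamus CFA libraries held 2 to 6 Hox reads each and thalamus saline libraries 6 to 16.

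Genes next to the clusters were read in both regions. Of 25 rows flanking the clusters, 3 a side, 19 reached the filter. In saline 10 were called higher and 2 lower in RVM, beside 22.7% and 22.6% of all genes, with log2 differences between -0.32 and 1.31. In CFA 6 were called higher and 0 lower, beside 18.1% and 14.9%, with differences between -0.13 and 0.68. Skap2, next to Hoxa, had the largest in saline, 1.31 (adjusted p = 0.000392), and 0.57 in CFA (adjusted p = 0.0653). Mtx2, a mitochondrial outer membrane gene beside Hoxd1, differed by 0.47 in saline and 0.68 in CFA, and Lnpk, beyond Hoxd13, by -0.32 in saline. Evx2, the homeobox gene next to Hoxd13, held 34 RVM and 2 thalamus reads. Within the clusters a pseudogene row between Hoxd3 and Hoxd1 on the opposite strand (AABR07052559.2) held 122 RVM reads and 1 thalamus read. Its RVM levels were 4.92, 4.44 and 4.09 FPKM for saline and 2.78, 2.73 and 3.01 FPKM for CFA, without overlap. Its reads could not be told from those of transcripts on the Hoxd strand, since the libraries are not stated to be stranded. A row without a gene name beside Hoxa4 on the opposite strand held 54 RVM reads and 0 in thalamus, with 2.29 FPKM in CFA library 1 and 0.0712 to 0.437 in the other RVM libraries. Both were chosen after their values were seen.

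In RVM the question of the study was how CFA and saline samples differ, and no Hox gene passed. Of 10 tested, 0 were called higher or lower by limma, as were 0 (0%) of all 14289 genes, 2030 of which had an unadjusted p under 0.05. With limma-voom on the recovered reads 0 of 10 were called too. All 10 had a lower mean in CFA, with a median log2 difference of -0.34 against -0.02 for all genes tested. Hoxd1 had the largest difference among the 10, -0.60 ± 0.19 (95% interval -1.06 to -0.15, adjusted p = 0.264), from 10.6 ± 2.95 to 6.46 ± 0.378 FPKM. Hoxd4 had -0.43 ± 0.15 (-0.77 to -0.08, adjusted p = 0.287), Hoxb3 -0.35 ± 0.07 (-0.51 to -0.19, adjusted p = 0.242) and Hoxd3 -0.33 ± 0.12 (-0.63 to -0.04, adjusted p = 0.305). These 4 also had an unadjusted p under 0.05 and all CFA libraries below all saline libraries, 4 of 10 beside 12.5% of all genes tested. The 10 genes share libraries and clusters and are not independent of each other.

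For the other 6 the intervals included 0. Hoxb5 had -0.36 (-0.85 to 0.14), Hoxb6 -0.39 (-0.99 to 0.21), Hoxc4 -0.15 (-0.49 to 0.19), Hoxc5 -0.15 (-0.74 to 0.44), Hoxb2 -0.14 (-0.40 to 0.12) and Hoxb4 -0.08 (-0.38 to 0.23). A fall of about the size of Hoxd1 was thus within the interval for Hoxb5, Hoxb6 and Hoxc5 and outside it for Hoxb2, Hoxb4 and Hoxc4. Without RVM saline library 1, the library with the highest Hox sum, the difference of Hoxb4 turned to 0.064, and the median of the 10 was -0.23. Hindbrain identity genes summed to 135 to 165 FPKM in the saline libraries of RVM and 126 to 147 in its CFA libraries, with Tph2 at 56.3 ± 10.5 and 42.7 ± 7.74 FPKM (log2 -0.39, adjusted p = 0.360). Leukocyte genes moved against the Hox genes in these libraries. Ptprc was at 1.74, 1.39 and 1.40 FPKM for saline and 8.12, 2.52 and 5.72 for CFA (log2 1.26, adjusted p = 0.242), and S100a8 and S100a9, genes of neutrophils, differed by 0.86 and 1.75 (both 0.242), all 3 without overlap. The part of these markers in the Hox differences was not tested.

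**Figure D5:**
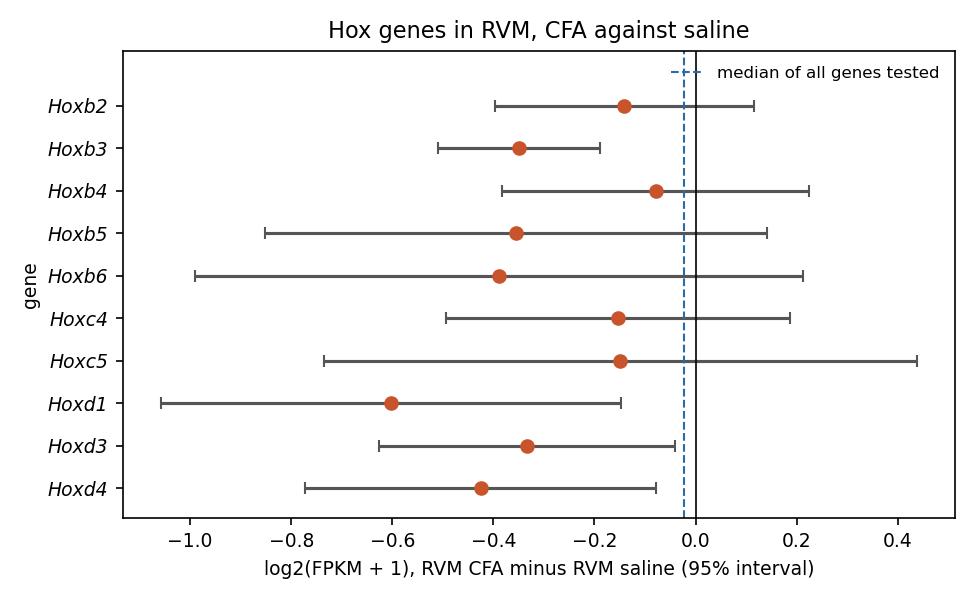
Difference of log2(FPKM + 1) between RVM CFA and RVM saline (horizontal axis) for the 10 Hox genes tested, with 95% intervals, and the median of all genes as a dashed line. All 10 points lie below 0, the intervals of Hoxb3, Hoxd1, Hoxd3 and Hoxd4 leave 0 out, and none passed after adjustment over all genes.

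In thalamus no Hox gene reached the filter, so the comparison of CFA with saline had no member. In the fit without a filter the 7 genes with thalamus reads had adjusted p-values of at least 0.23. Hoxd1 held 21 reads in saline and 2 in CFA, Hoxc6 3 and 7, Hoxc13 3 and 0, Hoxb3 4 and 0, Hoxc5 1 and 0, and Hoxb4 and Hoxb5 0 and 1 each. The libraries of Hoxd1 did not overlap, at 0.330, 0.204 and 0.0990 FPKM in saline and 0.0575, 0 and 0 in CFA. Of the 14722 genes that reached the filter, 16.8% had every CFA library below every saline library. Hoxd1 itself lay under the filter, and nothing is read from its lack of overlap. With limma-voom on recovered reads and no filter, 0 of the 7 were called, beside 3.58% of 23138 genes called higher and 0.0562% lower. Hoxd1 differed by -2.78 ± 0.79 on the log2 scale there (95% interval -4.64 to -0.91, adjusted p = 0.134), and its value rests on 23 reads.

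The TALE cofactors were present in both regions. All 9 were tested between regions, with 2 called higher and 3 lower in RVM in saline and 3 and 2 in CFA. Of all genes tested 22.7% were called higher and 22.6% lower in saline, and 18.1% and 14.9% in CFA, so that shares of a list near these are no result about it. Pbx3 had 43.8 ± 12.6 FPKM in RVM saline and 10.8 ± 1.94 in thalamus saline (log2 1.90), and Meis1 at 8.16 ± 1.31 and 1.76 ± 0.473 (1.74). Pknox2 ran the other way, at 1.82 ± 0.241 and 6.46 ± 0.834 FPKM (-1.40). Their adjusted p-values were 0.00098, 0.000555 and 0.00041. In CFA these 3 were called in the same directions, with differences of 1.66, 1.81 and -1.11. In the CFA comparison of RVM 0 of 8 passed, with Meis3 at -0.03 (adjusted p = 0.900) and Pknox1 at 0.03 (0.918).

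Retinoic acid genes, which act upstream of the low-number end, were called in both directions. In saline 4 of 13 tested were higher and 3 lower in RVM, and in CFA 2 and 5 of 15, beside the shares of 22.7%, 22.6%, 18.1% and 14.9% among all genes. Some of these reached the filter through a single region, among them Cyp26b1 in saline (RVM) and Stra6 in CFA (thalamus). Nothing is therefore read from the counts or from the calls of these genes. Crabp1, a retinoic acid binding protein, had 23.5 ± 1.82 FPKM in RVM saline and 2.12 ± 0.6696 in thalamus saline (log2 2.995), Aldh1a1, a retinoic acid synthesis enzyme, at 84.6 ± 7.10 and 12.4 ± 5.80 (2.75) and Cyp26b1, which degrades it, at 9.23 ± 2.83 and 0.773 ± 0.702 (2.56). Dhrs3, which limits its synthesis, was lower in RVM, at 5.54 ± 1.26 and 15.1 ± 3.27 (-1.30). In CFA Crabp1 and Aldh1a1 were again higher (2.78 and 2.33) and Dhrs3 again lower (-0.96). Cyp26b1 did not pass there by limma (1.805, adjusted p = 0.0601), at 9.99 ± 1.29 FPKM in RVM CFA and 3.15 ± 3.85 in thalamus CFA. Aldh1a2, a synthesis enzyme of meninges, was lower in RVM CFA (-2.02), beside summed meningeal and mural genes of 114 to 296 FPKM in CFA libraries of thalamus and 122 to 137 in its saline libraries, whose part was not tested. In RVM 0 of 13 passed between CFA and saline. Rxrg, a partner receptor, was at 4.05 ± 0.453 in saline and 2.50 ± 0.327 in CFA (-0.53, adjusted p = 0.242), Rarg differed by 0.31 (0.424) and Rxra by 0.25 (0.428).

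Of 12 regulators upstream of Hox genes 4 were tested between regions. Gbx2, which sets the front border of the hindbrain in the embryo and is also a thalamic gene, was lower in RVM, at 1.58 ± 0.485 FPKM against 33.7 ± 16.9 in saline (log2 -3.67, adjusted p = 0.000399). Zfp503 was higher (0.72, adjusted p = 0.000787) and Gdf11, a signal that moves Hox borders, lower (-0.55, adjusted p = 0.0112). In CFA Zfp503 was higher and Gbx2 lower. Gdf11 was not called there (log2 0.007, limma adjusted p = 0.979), at 20.9 ± 0.446 FPKM in RVM CFA and 21.2 ± 5.38 in thalamus CFA. The shares called over all genes were 22.7% higher and 22.6% lower in saline, and 18.1% and 14.9% in CFA. Between CFA and saline in RVM Gdf11 differed by 0.06 (adjusted p = 0.645) and Gbx2 by -0.19 (0.676). None of the 4 tested in RVM passed.

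Polycomb and Trithorax genes were read in both regions. Of 20 Polycomb genes tested in saline 2 were higher and 7 lower, and in CFA 0 and 4, beside 22.6% of all genes called lower in saline and 14.9% in CFA. Cbx6 had 65.2 ± 3.26 FPKM in RVM saline and 91.1 ± 2.64 in thalamus saline (log2 -0.48), and Phf1 and Phc1 differed by -0.62 and -0.54. Lower in CFA were, among others, Pcgf2 (-0.79), Phc3 (-0.52) and Phc1 (-0.39). Of 11 Trithorax and H3K27 demethylase genes 1 was higher and 6 lower in saline, and 1 and 4 in CFA, beside the same shares. Kmt2a, the methyltransferase that keeps Hox genes active, was at 2.63 ± 0.0751 and 8.30 ± 0.905 FPKM (-1.36), Kdm6b at 2.27 ± 0.1404 and 6.64 ± 0.101 (-1.23), Kmt2b at 2.24 ± 0.0607 and 6.42 ± 0.276 (-1.20) and Ash1l at 9.39 ± 0.509 and 15.9 ± 0.593 (-0.70). These 4 were called lower in RVM in CFA as well. The medians of the 2 lists in saline were -0.25 and -0.31, against 0.02 for all genes tested. In RVM 0 of 20 and 0 of 11 passed between CFA and saline, with Cbx6 at -0.18 (adjusted p = 0.290), Phc3 at -0.24 (0.371), Ash2l at -0.13 (0.498), Kdm6a at -0.08 (0.730) and Kdm6b at 0.10 (0.753).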

How the data were processed

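RNA of thalamus and RVM was isolated with TRIzol and prepared with a TruSeq RNA kit, per the labels' protocols, whose extraction text names retinas as the tissue. The authors deposited FPKM values per gene with gene lengths, and no aligner, counter, build or annotation is named in the sources used here. FPKM times length was a whole multiple of a single step in 100% of values (tolerance 0.01), taken as 1 read. The total the authors divided by was 0.933 to 1.17 times the recovered total, so the deposited FPKM carries a further scaling of unknown method. Pooled reads were compared as CPM with a floor of 3 reads per group and exact binomial 95% intervals. Intervals and floors cover counting error only.

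Groups came from the tissue and treatment labels. log2(FPKM + 1) was fitted with limma 3.58.1 (R 4.3.3, empirical Bayes with trend) to genes averaging 1 FPKM or more across both groups (6 libraries), with Benjamini-Hochberg adjustment over all genes and a threshold of 0.05. The fits were also run on simulated counts, with changes set only in well-read genes and a single dispersion for all genes. Those runs do not speak for Hox rows at or near 0 reads. Protein sequences, which the plan named, were not used here. Hox genes were named with all values where a group mean reached 1 FPKM, and the others by reads. Of 14 context lists (185 symbols, 180 matched) up to 4 called members with the smallest p were named per comparison, otherwise 3, and some genes are not reported here. The members and lists were chosen with earlier results of these data known. Alternatives were a pseudocount of 0.1, no filter, a filter at 5 FPKM, 3 other scalings, limma-voom on recovered reads, robust empirical Bayes, all 12 libraries in a single model, the replicate number as a block and leaving out each library. limma-voom without a filter was added after the data were seen. Sequences are those of RefSeq, and 20 of 39 Hox genes had a promoter entry.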

Additional observations from a re-analysis of the deposited data

How the results depend on the processing

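The number of Hox genes called higher in RVM was 9 in either treatment under the other pseudocount, scaling, fit and block settings with the filter at 1 FPKM. It was 4 in saline and 3 in CFA with the filter at 5 FPKM, which tests fewer genes, and with limma-voom on recovered reads without a filter it was 16 in saline and 13 in CFA. Without a filter limma called 13 and 11, and nothing is read from these counts, for the reason given above. Leaving out 1 library gave 9 to 10 in saline, 8 to 9 in CFA and 0 for CFA against saline in either region. The main fits did not treat same-numbered samples as pairs. The correlation of same-numbered deviations lay between -0.03 and 0.36. It was highest in thalamus between CFA and saline, at 0.36, 0.06 and 0.27 for numbers 1, 2 and 3, though CFA 3 matched saline 2 best. With the replicate block the Hox counts were 9, 9, 0 and 0. Over all genes of that thalamus comparison the block called 755 higher and 583 lower, against 565 and 40 without it. In RVM no alternative called a Hox gene between CFA and saline. With 1 library left out, the difference of Hoxb4 ran from -0.17 (without RVM saline library 3) to 0.064 (without RVM saline library 1) and that of Hoxc5 from -0.43 (without RVM CFA library 2) to 0.033 (without RVM CFA library 3). The other 8 stayed negative, but 5 moved by over 1.5 times. Hoxd3 moved to -0.21 without RVM saline library 3. Hoxb5 moved to -0.22 without saline 1, -0.20 without CFA 3 and -0.58 without CFA 2, and Hoxb6 to -0.24 without saline 1, -0.25 without CFA 1, -0.26 without CFA 3 and -0.66 without CFA 2. Hoxc4 moved to -0.036 without saline 1, -0.057 without CFA 1, -0.24 without CFA 2 and -0.27 without saline 3, and Hoxb2 to -0.041 without CFA 2 and -0.075 without saline 3. The lowest adjusted p of any was 0.0931, for Hoxb3 without RVM CFA library 2, where 396 of all genes passed as higher and 88 as lower, against 0 with all libraries and 0 to 2 without any other. Counts over all genes in the region comparison of CFA fell from 2674 higher and 2206 lower to 1580 and 1326 without RVM CFA library 1, 1563 and 1346 without library 2, and 1651 and 1286 without library 3. Giving each library an equal sum of FPKM shifted the all-gene median to -0.14 in saline and -0.29 in CFA and the split of higher and lower genes to 2013 and 4559, and to 1025 and 5083. With limma-voom the splits were 2587 and 3781, and 1443 and 3736. Genes with under 3 reads in a group are not told from absent at this depth.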
